A study of Arabidopsis thaliana with 4 samples.

Results

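The response to aluminium (Al) was followed in roots of coi1-2, an Arabidopsis thaliana mutant, by comparing its library with Al against its library without Al over all genes. These are 2 of the 4 RNA-seq libraries of the study, and 22534 of the 23381 gene loci listed in the study had at least 1 read in them. The mutant carries coi1-2, a leaky allele of COI1, which encodes the F-box protein that perceives the wound and defence hormone jasmonate. Its wild-type counterpart is Col. Seedlings were 6 days old, about 500 were pooled for a sample, and the solution held 0 or 10 µM AlCl3, so each of the 4 groups (Col or coi1-2, each with or without Al) is 1 library of pooled roots and has no replicate. The titles and the treatment protocol put the Al exposure at 6 h and the design text puts it at 24 h. The titles put the libraries without Al at 0 h, where the treatment protocol gives 6 h. A time in solution, if the titles hold, cannot be told apart from Al in any ratio below. In pooled roots, fewer cells of a type and less RNA per cell cannot be told apart either.

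Aluminium dissolves in acid soil and is toxic to root tips, where it binds to the cell wall and stops elongation. Arabidopsis roots resist it mainly by releasing malate and citrate, which chelate Al outside the cell, and by moving Al into vacuoles and away from the growing tip. The zinc finger factor STOP1 drives many of these genes, and jasmonate signalling through COI1 is one of the hormone pathways that shape root growth under Al.

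The libraries held between 6.93 and 7.80 M uniquely assigned reads, with 7.42 M in coi1-2 without Al and 7.19 M in coi1-2 with Al. Levels are given as RPKM, which scales reads by transcript length and library total. Ratios are the log2 ratio of RPKM + 0.5, Al against no Al, so that the ratio of a gene with few reads is smaller than that of its reads. A call, higher or lower, needed 2 things: a ratio past 2-fold, and a read ratio whose 95% Clopper-Pearson interval did not reach no change. That interval covers counting error only, takes no pseudocount and can therefore lie beyond the ratio printed with it. With 1 library a side there is no test, and the calls describe these libraries.

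In coi1-2 roots with Al, 11 of 20 suberin and wax genes, 9 of 18 salicylate genes, 9 of 22 Al resistance genes and 18 of 46 glutathione S-transferases were called higher. All 14 root hair markers, 9 of 11 endodermis markers, 22 of 30 kinesins and 75 of 133 leucine-rich repeat receptor kinases were called lower. Of 17514 genes with at least 1 RPKM in some library, 1641 (9.37%) were called higher and 4064 (23.2%) were called lower. The genes called higher took 6.13% of reads without Al and 24.2% with Al, and those called lower took 7.24% with Al. The median ratio of all genes was -0.32, with the 5th and 95th percentiles at -2.01 and 1.67. When the libraries were rescaled with TMM factors, the median of all genes moved to 0.01 and the calls became 2616 higher (14.9%) and 2548 lower (14.5%), a split of 50.7% higher against 28.8% before. All 1641 genes called higher stayed called under TMM, and so did 2548 of those called lower. For that reason each list median below is stated as its distance from the all-gene median, and list counts are given under both scalings.

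**Figure D1:**
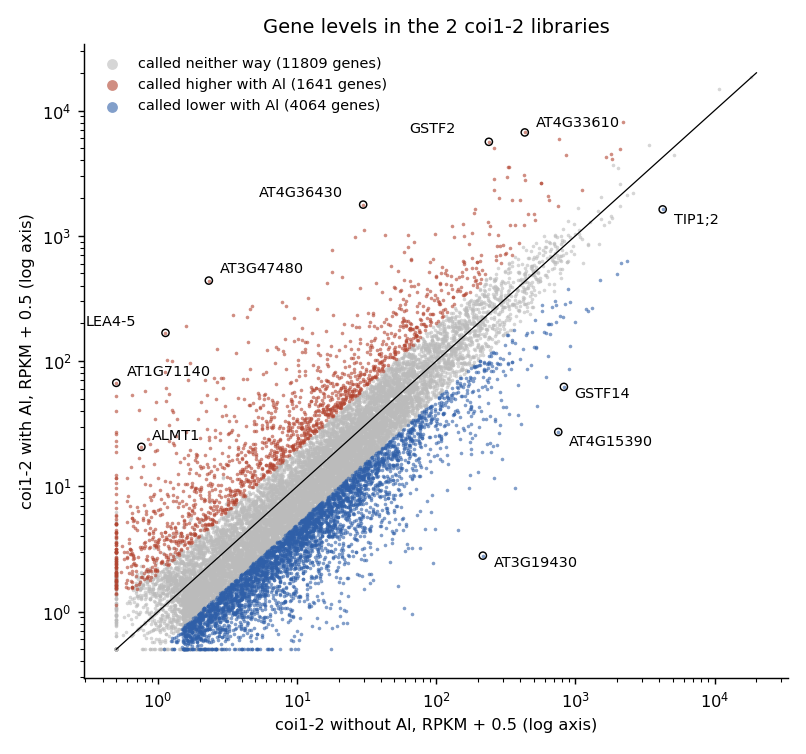
Level of each gene past the filter in coi1-2 without Al (x axis) and with Al (y axis), in RPKM + 0.5 on log axes, with the diagonal of equal level. The 1641 genes called higher and 4064 called lower are coloured, and circled genes are described in the text, from LEA4-5 and AT3G47480 at the upper left to AT3G19430 at the lower right.

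COI1 was read at 29.8 RPKM without Al and 29.4 RPKM with Al in coi1-2, a log2 ratio of -0.02 (interval -0.20 to 0.16). In Col it was at 33.9 and 19.6 RPKM, a ratio of -0.77. Since coi1-2 is a point mutation, the transcript level does not check the genotype.

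The genes of Al exclusion and detoxification stood out upward in the mutant. Of 22 list members past the filter, 9 were called higher and 4 lower, with a median 1.19 above that of all genes. Under TMM factors the counts were 12 and 3, and in Col they were 7 and 5, where 11.4% of all genes were called higher and 35.8% lower. ALMT1, the plasma membrane channel that releases malate, went from 3 reads (0.258 RPKM) to 227 reads in coi1-2, a ratio of 4.77 (interval 4.72 to 8.57). In Col it had 1 and 93 reads. PGIP1, a wall protein that inhibits pectin-degrading enzymes and a known STOP1 target, went from 0.692 to 54.2 RPKM (ratio 5.52, interval 5.16 to 7.75). In the mutant without Al both genes were at under 1 RPKM, and in the mutant with Al both were well above it. BCB, a blue copper-binding protein of the cell surface, was at 2.02 and 73.4 RPKM in coi1-2 (ratio 4.87), against 16.5 and 157 RPKM in Col. GDH1, a subunit of glutamate dehydrogenase, was at 31.7 and 242 RPKM. ALS3, which belongs to an ABC transporter complex thought to move Al away from the root tip, was at 10.2 and 28.5 RPKM (ratio 1.44).

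The regulators and the wall enzymes of the same list were less uniform. WRKY46, a repressor of ALMT1, was at 3.31 and 11.0 RPKM in coi1-2 and at 7.24 and 4.02 RPKM in Col (ratio -0.78). RAE1, an F-box protein that targets STOP1 for degradation, was at 11.9 and 24.9 RPKM. HAK5, a high-affinity potassium transporter, was at 13.2 and 32.5 RPKM in the mutant and at 19.9 and 18.5 RPKM in Col. The 4 members called lower were TBL27, a xyloglucan acetyltransferase (23.4 to 5.85 RPKM), XTH15, a xyloglucan-modifying enzyme (160 to 44.4 RPKM), the DNA damage checkpoint kinase ATR (1.83 to 0.424 RPKM) and the kinase CIPK23 (77.1 to 36.4 RPKM), of which CIPK23 was not called under TMM. STOP1, with 0 and 3 reads, and the citrate transporter MATE, with 2 and 8 reads, lay below the filter and are not compared.

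Organic acid metabolism split by enzyme. In the list of malate and citrate enzymes 4 of 19 members past the filter were called higher and 6 lower (6 and 4 under TMM). Isocitrate lyase, ICL, which feeds acetate carbon into malate in the glyoxylate cycle, was at 21.2 RPKM without Al and 197 RPKM with Al. The cytosolic malic enzyme ME2, which breaks malate down to pyruvate, was at 310 and 716 RPKM. The phosphoenolpyruvate carboxylase PPC3, which makes the precursor of malate, was at 166 and 48.4 RPKM.

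The largest ratios belonged to a short list of genes nearly silent without Al. AT3G47480, an EF-hand calcium-binding protein on chromosome 3 from 17496354 to 17496947, had 8 reads without Al and 1873 with Al in coi1-2 (1.81 and 438 RPKM), a ratio of 7.57 (interval 6.93 to 9.13). LEA4-5, a late embryogenesis abundant protein that protects enzymes during water loss, had 4 and 1030 reads (ratio 7.21, interval 6.69 to 9.93). AT1G71140, an efflux protein of the MATE family, had 0 and 738 reads, at least 254-fold higher when the library without Al is set to the floor of 3 reads. In Col without Al these 3 genes were also weakly read, at 0.647, 1.05 and 0.0831 RPKM in the same order, and read at 416, 183 and 60.5 RPKM with Al.

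ACA13, a calcium pump of the plasma membrane family, had 15 reads without Al and 2210 with Al (0.662 and 101 RPKM). AT3G46080, a zinc finger protein close to the stress repressors of the ZAT class, had 4 and 674 reads. AT5G52720, of the copper transport protein family, had 0 and 222 reads, at least 76.3-fold higher. ZAT7, another zinc finger repressor, was at 0.637 and 60.9 RPKM in coi1-2, a ratio of 5.75 where Col had 4.22. AT1G75600, a histone of the H3 type, was at 0.761 and 99.5 RPKM, while the median of the 49 genes matched as core histones lay 0.11 below that of all genes. ARD3, an enzyme of methionine salvage, was at 0.307 and 57.2 RPKM. All of these stayed called under TMM, which could only raise their ratios.

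The lowest ratios included several genes of the cell wall and surface. AT3G19430, named in the files as related to late embryogenesis abundant proteins, went from 3003 reads (215 RPKM) to 31 reads (2.29 RPKM), a ratio of -6.27 (interval -7.11 to -6.04). AT1G19900, a glyoxal oxidase-related protein, went from 903 to 6 reads (ratio -6.13), and the peroxidase AT2G39040 from 528 to 5 reads (ratio -5.78). CER4, which reduces fatty acyl-CoA to the primary alcohols of waxes, had 215 reads without Al and 0 with Al, at least 69.5-fold lower. AT4G12510 and AT4G12520, near-identical lipid-transfer-like genes between which unique reads are uncertain, went from 94.9 to 1.96 RPKM and from 364 to 9.16 RPKM. Their Col ratios were -1.85 and -1.93, against -5.28 and -5.24 in coi1-2.

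By level rather than ratio, secreted proteins were among those that gained most (these genes were picked by their difference in RPKM after the values were seen). AT4G33610, a glycine-rich protein, stood at 432 RPKM without Al and 6684 with Al in coi1-2. AT4G38080, a hydroxyproline-rich glycoprotein, stood at 2194 and 8072 RPKM. The arabinogalactan protein AGP2, a sugar-coated protein of the cell surface, stood at 756 and 5918 RPKM. Among the largest losses were the tonoplast water channel TIP1;2 (4236 to 1624 RPKM), the extensin-like AT1G23720 (2357 to 633 RPKM) and the dehydrin AT1G54410 (1989 to 496 RPKM). AT1G54410 was lower while LEA4-5 was higher, so genes named for desiccation proteins lay at both ends.

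Glutathione S-transferases, which couple glutathione to toxic compounds, were called higher more often than lower. Of 46 past the filter, 18 were called higher and 8 lower (22 and 5 under TMM), with a median ratio of 0.68 against -0.32 for all genes. Their summed level was 4077 RPKM without Al and 15382 RPKM with Al. GSTF2 alone stood at 238 and 5626 RPKM (ratio 4.56), GSTF7 at 42.2 and 1012 RPKM, and GSTF6 at 2.95 and 232 RPKM. Of the tau class, GSTU22 was at 3.84 and 224 RPKM. The 8 called lower included genes that were among the strongest of the family without Al. GSTF14 was at 825 and 61.7 RPKM (ratio -3.73), and GSTU14 had 814 and 95 reads.

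Secreted lipid-transfer-like proteins were called in both directions, 28 higher and 13 lower of 62 (32 and 11 under TMM) and a median 1.26 above all genes. AT3G22600 and AT3G22620, which lie close together on chromosome 3, stood at 330 and 329 RPKM without Al and at 3516 and 3533 RPKM with Al. AT2G44290 was at 2.13 and 124 RPKM. Class III peroxidases, which build and stiffen wall polymers, were divided, with 20 higher and 17 lower of 60 (24 and 14 under TMM). AT4G36430 was at 29.3 and 1772 RPKM (ratio 5.90), PRX52 at 7.28 and 293 RPKM, and AT5G19880 had no read without Al and 25.6 RPKM with it. AT5G15180, by contrast, was at 177 and 19.3 RPKM.

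Genes of salicylate signalling and immunity were called higher in 9 of 18 cases and lower in none (11 and 0 under TMM), with a median 1.33 above all genes. In Col the same list had 4 higher and 2 lower and a median 0.47 above that of all genes. PBS3, the enzyme that conjugates isochorismate on the way to salicylate, was at 0.341 and 23.3 RPKM in coi1-2 and at 0.324 and 10.5 RPKM in Col. FMO1, which makes the immune signal N-hydroxypipecolate, was at 6.10 and 48.3 RPKM in the mutant and at 7.42 and 20.3 RPKM in Col. WRKY70, a factor that favours salicylate over jasmonate responses, was at 9.70 and 102 RPKM, against 5.77 and 39.6 RPKM in Col. For these 3 genes the library of coi1-2 with Al was the highest of the 4. SARD1 and ICS1, a factor and an enzyme of salicylate synthesis, had ratios of 1.24 and 1.23 in coi1-2 and -0.60 and -0.59 in Col. Neither was called in Col, where the median ratio of all genes was -0.59. ICS1 rests on few reads, 11 and 35 in coi1-2.

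Jasmonate biosynthesis and signalling genes differed in their counts. None of 17 biosynthesis genes was called in coi1-2 (4 higher and 0 lower under TMM), and their median lay 0.41 above all genes. In Col 2 of the 17 were called higher and 5 lower, where 11.4% of all genes were called higher and 35.8% lower. LOX4, a lipoxygenase of the first step, had 33 and 67 reads in coi1-2 and 206 and 38 reads in Col. In signalling and turnover, 4 of 27 (14.8%) were called higher and 4 (14.8%) lower under library totals, and 4 and 4 under TMM. The TMM counts are near the shares over all genes, 14.9% higher and 14.5% lower. The central factor MYC2 had 1274 reads without Al and 370 with Al (ratio -1.72, interval -1.91 to -1.57), and its relative MYC4 was at 27.0 and 5.76 RPKM. JOX4, which oxidises and so inactivates jasmonate, had no read without Al and 2.50 RPKM with Al in coi1-2, and was at 2.21 and 31.8 RPKM in Col. JAZ7, of the JAZ family of jasmonate repressors, was at 0.995 and 5.34 RPKM.

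Suberin and wax genes, which waterproof endodermal and outer walls, were called higher in 11 of 20 cases and lower in 1 (14 and 1 under TMM), with a median 1.59 above all genes. The transporters ABCG6 and ABCG20, which export suberin lipids, were at 49.4 and 389 RPKM and at 32.9 and 123 RPKM. The acyltransferases GPAT7 and GPAT5, which link fatty acids to glycerol, were at 8.34 and 65.9 RPKM and at 44.6 and 152 RPKM. MYB41, a factor that switches on suberin synthesis, was at 5.47 and 22.0 RPKM. The 1 member called lower was CER4. Endodermis markers, from the tissue that carries much of a root's suberin, were lower in the same comparison, with a summed level of 1227 RPKM without Al and 278 RPKM with Al. Lignin genes did not share this pattern, with 2 of 20 phenylpropanoid genes called higher and 5 lower under both scalings. Under library totals these shares, 10% and 25%, are near those over all genes, 9.37% and 23.2%. F5H1, the hydroxylase that leads to syringyl lignin, was at 42.6 and 2.90 RPKM (ratio -3.66).

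Abscisic acid and dehydration genes were called higher in 10 of 26 cases and lower in 3 (13 and 1 under TMM). GOLS2, a galactinol synthase that makes protective sugars, was at 3.57 and 70.9 RPKM in coi1-2 and at 9.37 and 24.8 RPKM in Col. The phosphatase HAI1 was at 0.165 and 4.34 RPKM. CYP707A3, which degrades abscisic acid, was at 1.70 RPKM without Al and had no read with Al. NCED3, an enzyme of abscisic acid synthesis, was at 4.60 and 14.7 RPKM. These are RNA levels of single genes.

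Genes of carbon shortage and of mitochondrial stress were called higher more often than lower. Of 21 sugar starvation genes, 8 were called higher and 3 lower (11 and 1 under TMM). DIN2, a beta-glucosidase induced in the dark, was at 1.68 and 69.8 RPKM, and ASN1, asparagine synthetase, had 6 and 77 reads. BT1, a BTB-domain scaffold protein, was at 254 and 20.7 RPKM and was among the 3 called lower. Of 13 mitochondrial stress genes, 7 were called higher and 1 lower (9 and 0 under TMM). The alternative oxidases AOX1A and AOX1D, which bypass the energy-conserving part of respiration, were at 27.8 and 95.6 RPKM and at 0.101 and 2.18 RPKM. Autophagy genes had 4 of 20 called higher and none lower (7 and 0 under TMM), led by ATG8D (5.04 to 30.6 RPKM) and the cargo receptor NBR1 (275 to 1019 RPKM).

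Among transcription factor families, NAC and WRKY factors leaned upward and bHLH factors downward. Of 73 NAC factors 21 were called higher and 7 lower (29 and 5 under TMM), with NAC042, a regulator of camalexin synthesis, at 0.458 and 46.8 RPKM and NAP, a senescence regulator, at 5.51 and 123 RPKM. Of 58 WRKY factors 21 were called higher and 11 lower (24 and 7 under TMM), with WRKY50 at 1.55 and 46.9 RPKM and WRKY51 at 10.9 and 124 RPKM. In Col, 17 WRKY factors were called higher and 17 lower, where 11.4% of all genes were called higher and 35.8% lower. Of 75 bHLH factors 3 were called higher and 23 lower (8 and 19 under TMM), among them the iron regulator BHLH38 (11.2 to 0.762 RPKM). The 50 ERF and DREB genes had 14 higher and 8 lower (17 and 3 under TMM), with DREB19 at 0.451 and 18.6 RPKM.

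Promoters were read for the genes that share these directions, since WRKY factors and other regulators bind through short motifs. None of the motifs counted was taken as a STOP1 site. The 250 bases upstream of the gene start were taken from the TAIR10.1 assembly of RefSeq for 17363 of the 17514 genes, and 12 motifs were counted on both strands, with overlapping copies counted apart. Besides TTGAC (WRKY factors) and CGCGT (CAMTA factors), the set held ACGTGNC (abscisic acid factors), CACGTG (the G-box), CCGAC (DREB factors), GCCGCC (ERF factors), TGACG (TGA factors), AAATATCT (the evening element), AAACCCTAA (the telomere-like box), TGGGC (TCP factors), TATAAA (the TATA box) and GAANNTTC (heat shock factors). The G-box and the abscisic acid motif can share bases. TTGAC, the core of the WRKY binding site, stood in 45.9% of all promoters, in 53.5% of those of genes called higher and in 57.4% of those called at least 4-fold higher. It stood in 46.6% of promoters of genes called lower, and in 50.9% of those at least 4-fold lower. CGCGT, the core of the site bound by CAMTA factors, stood in 7.38% of all, 10.9% of higher, 13.8% of at least 4-fold higher and 4.98% of at least 4-fold lower genes. GAANNTTC stood in 9.46%, 14.4%, 16.3% and 7.42% in the same order. TGGGC, which is common before genes of growth and translation, went the other way, with 24.9% of all, 15.2% of higher and 13.6% of at least 4-fold higher genes. TATAAA stood in 47.0% of all and 48.8% of higher promoters. The median GC content was 31.2% of bases over all promoters and 30.8% over both directions of call. Under TMM factors TTGAC stood in 51.3% and CGCGT in 10.0% of promoters of genes called higher. A match is a string of letters and shows no binding.

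The 4 promoters below belong to genes described above and are shown because each holds CGCGT or TTGAC, or both. Capitals mark CGCGT and TTGAC and their reverse complements, ACGCG and GTCAA, and each run is written 5′ to 3′ on the gene's own strand and ends at the base before the gene start. PGIP1 lies at chr5:2132100-2132349 on the plus strand, ALMT1 at chr1:2658352-2658601 on the plus strand, AT3G46080 at chr3:16923300-16923549 on the minus strand and LEA4-5 at chr5:2090431-2090680 on the minus strand (TAIR10.1).
PGIP1: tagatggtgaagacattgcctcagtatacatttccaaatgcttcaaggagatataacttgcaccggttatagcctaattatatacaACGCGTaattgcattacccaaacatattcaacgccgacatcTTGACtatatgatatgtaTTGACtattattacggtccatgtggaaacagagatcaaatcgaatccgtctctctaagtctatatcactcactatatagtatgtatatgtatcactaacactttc
ALMT1: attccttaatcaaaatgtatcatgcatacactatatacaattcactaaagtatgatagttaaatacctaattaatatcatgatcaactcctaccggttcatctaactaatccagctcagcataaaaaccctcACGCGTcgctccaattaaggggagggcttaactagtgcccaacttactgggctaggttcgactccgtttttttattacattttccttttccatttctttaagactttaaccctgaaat
AT3G46080: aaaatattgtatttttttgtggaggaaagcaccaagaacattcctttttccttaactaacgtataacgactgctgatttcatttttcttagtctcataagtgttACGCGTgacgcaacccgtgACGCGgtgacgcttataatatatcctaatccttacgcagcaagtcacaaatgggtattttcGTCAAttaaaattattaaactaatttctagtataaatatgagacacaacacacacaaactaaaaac
LEA4-5: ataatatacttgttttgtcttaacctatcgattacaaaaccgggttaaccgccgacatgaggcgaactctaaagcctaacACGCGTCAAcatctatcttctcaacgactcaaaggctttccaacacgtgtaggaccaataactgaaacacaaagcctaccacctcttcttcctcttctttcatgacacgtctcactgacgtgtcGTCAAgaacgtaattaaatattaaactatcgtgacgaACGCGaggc
PGIP1 held 2 copies of each motif, ALMT1 2 of CGCGT and none of TTGAC, AT3G46080 3 and 1, and LEA4-5 3 and 2. In PGIP1 and ALMT1 both copies of CGCGT are the 2 strands of 1 palindrome, ACGCGT.

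Genes called the same way were compared with their neighbours on the chromosome. The gene after one called higher was itself called higher in 15.5% of cases, against 9.36% over all pairs of neighbours, and for genes called lower the shares were 27.3% and 23.3%. There were 40 runs of at least 3 neighbours called higher, none longer than 4, and 223 runs called lower. The longest run, of 9 genes, lay on chromosome 4 from 8751387 to 8810512 in the files' coordinates and holds the synthases and cytochromes P450 that make the root triterpenes arabidiol and baruol. Its synthases PEN1 and BARS1 were at 6.54 and 1.73 RPKM and at 13.7 and 1.71 RPKM. CYP705A3 was at 33.1 and 2.39 RPKM, CYP705A1 at 18.6 and 1.39 RPKM, and the acyltransferase AT4G15390, the most strongly read of the run, at 752 and 26.6 RPKM. All 9 were lower in coi1-2, with ratios from -4.79 to -1.50, and all 9 were also called lower in Col and under TMM.

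The thalianol region on chromosome 5, another set of root triterpene genes, was looked up after that run was seen. Its 3 genes past the filter were called lower in both genotypes, and each ratio in coi1-2 was below that in Col by more than 1 log2 unit. CYP705A5 had 230 reads without Al and 3 with Al in coi1-2, a ratio of -4.61 where Col had -1.51. The acyltransferases AT5G47980 and AT5G47950 had ratios of -3.42 and -3.07 in coi1-2 and -1.20 and -1.58 in Col. In the marneral region, a further set of root triterpene genes looked up in the same way, CYP705A12 and CYP71A16 had ratios of -1.20 and -1.48 in coi1-2 and -1.48 and -1.43 in Col, and neither differed between genotypes by the rule for differences. Next in length were 4 runs of 6 genes called lower, with ratios between -4.42 and -1.03. They start at MSRB9, AT5G52010, CNGC14 and MCM10, and 3, 4, 5 and 6 of their genes stayed called under TMM.

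Of the upward runs, 4 berberine bridge enzyme-like oxidases on chromosome 1, AT1G26380, AT1G26390, AT1G26410 and AT1G26420, were picked after the values were seen. AT1G26380, which makes indole cyanogenic defence compounds, had 19 reads without Al and 441 with Al in coi1-2. AT1G26390 had 0 and 142 reads, AT1G26410 2 and 65, and AT1G26420 4 and 125. None of the 4 exceeded 1.43 RPKM without Al, and their ratios were 4.17, 4.55, 3.11 and 3.70, against 3.84, 3.28, 1.66 and 1.88 in Col. Their promoters are shown because the genes are neighbours among those past the filter and each holds TTGAC, capitals again marking TTGAC and GTCAA. They lie on the minus strand at chr1:9128569-9128818, chr1:9131780-9132029, chr1:9140440-9140689 and chr1:9143337-9143586 (TAIR10.1).
AT1G26380: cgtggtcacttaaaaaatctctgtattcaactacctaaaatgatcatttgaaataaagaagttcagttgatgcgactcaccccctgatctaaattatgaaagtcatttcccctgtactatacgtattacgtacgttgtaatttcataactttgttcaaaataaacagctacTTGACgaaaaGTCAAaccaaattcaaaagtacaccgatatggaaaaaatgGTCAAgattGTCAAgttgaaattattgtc
AT1G26390: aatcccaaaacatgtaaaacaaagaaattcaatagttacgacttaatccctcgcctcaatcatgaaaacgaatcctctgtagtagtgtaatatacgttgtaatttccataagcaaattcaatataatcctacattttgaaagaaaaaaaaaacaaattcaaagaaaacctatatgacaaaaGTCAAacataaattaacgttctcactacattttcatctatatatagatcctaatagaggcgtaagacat
AT1G26410: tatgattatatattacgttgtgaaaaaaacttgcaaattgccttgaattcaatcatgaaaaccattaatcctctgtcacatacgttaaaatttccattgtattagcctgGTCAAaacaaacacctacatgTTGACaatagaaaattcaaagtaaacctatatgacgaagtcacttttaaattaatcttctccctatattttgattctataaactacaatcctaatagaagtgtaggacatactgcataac
AT1G26420: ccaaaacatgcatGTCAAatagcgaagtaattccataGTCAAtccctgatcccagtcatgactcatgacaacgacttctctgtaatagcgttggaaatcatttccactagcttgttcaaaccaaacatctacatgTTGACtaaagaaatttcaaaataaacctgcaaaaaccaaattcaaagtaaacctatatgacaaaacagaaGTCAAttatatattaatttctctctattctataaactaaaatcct
The copies number 4, 1, 2 and 4. Over all promoters, genes with no copy of TTGAC were called higher in 8.05% of cases, with 1 copy in 10.2% and with 3 or more in 13.9%. The share called lower was between 22.7% and 23.8% in the classes of 0, 1, 2 and 3 or more copies.

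**Figure D2:**
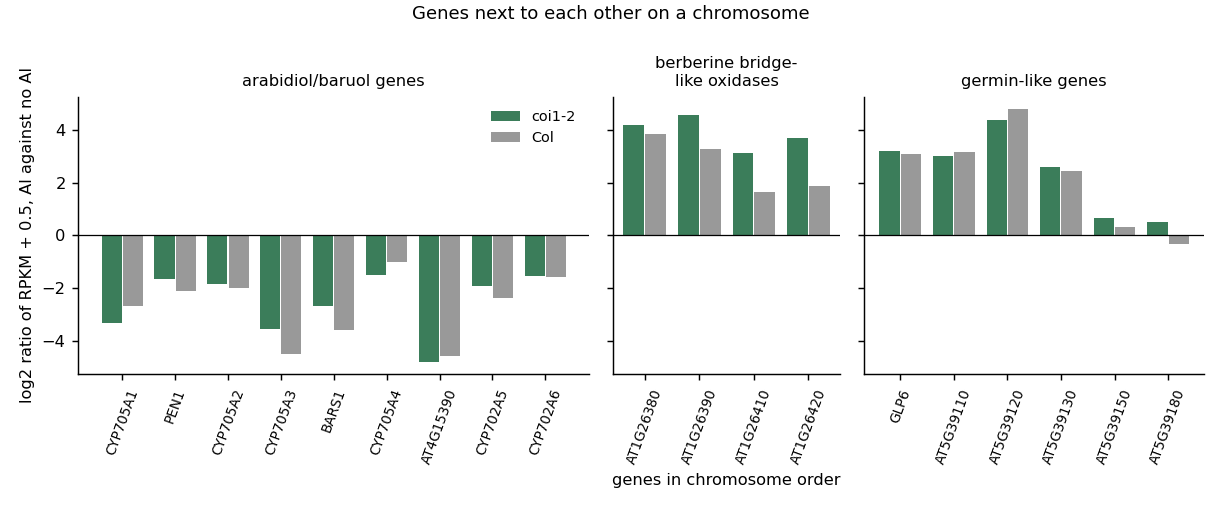
Log2 ratio of RPKM + 0.5 with Al against without Al for neighbouring genes in chromosome order, in coi1-2 (green) and Col (grey). The 9 genes of the arabidiol and baruol region all lie below 0 and the 4 oxidases all lie above 0, while the germin-like genes split into 4 called higher and 2 called neither way.

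Germin-like genes on chromosome 5, secreted proteins of the wall, formed another upward run. GLP6, AT5G39110, AT5G39120 and AT5G39130 were called higher in coi1-2, with ratios between 2.58 and 4.37. AT5G39150 and AT5G39180, which follow them, had 0.65 and 0.49 and were not called. These genes are close copies of each other, so the split of unique reads among them is uncertain.

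Markers of root hairs and the endodermis were mostly called lower, and those of xylem, phloem and pericycle mostly were not called. Of 14 root hair genes, all 14 were called lower (12 under TMM), and their summed level was 1909 RPKM without Al and 494 RPKM with Al in coi1-2, against 1791 and 765 RPKM in Col. EXPA7, an expansin of hair cells, was at 92.5 and 8.07 RPKM, MRH6, a gene needed for hair growth, at 33.1 and 1.48 RPKM, and RSL4, the factor that sets hair length, at 6.47 and 0.741 RPKM. Of 11 endodermis genes 9 were called lower under both scalings, with ratios of all 11 between -3.45 and -0.44. CASP1, which scaffolds the Casparian strip, was at 446 and 86.2 RPKM, and its peroxidase PER64 at 157 and 27.6 RPKM. No root hair or endodermis marker was at 0 in either library. Markers of the root cap (4 of 4 lower, 3 under TMM) and the stem cell niche (6 of 9 lower, 3 under TMM) went the same way, as did 2 of 3 cortex markers under both scalings. Xylem had 1 of 12 called lower (0 under TMM), and phloem 1 of 8 called higher and none lower (2 and 0 under TMM). Pericycle and lateral root had 1 of 7 called higher and 2 lower (1 and 0 under TMM), with a median 0.16 above that of all genes.

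Markers of green shoot tissue moved the other way, with 10 of 19 called higher and none lower (13 and 0 under TMM). Their summed level was 260 RPKM without Al and 544 RPKM with Al in coi1-2 and 197 and 788 RPKM in Col. LHCB1.1 and LHCB1.3, which bind chlorophyll, were at 3.78 and 29.8 RPKM and at 33.3 and 144 RPKM. None of the 19 was at 0. The part that a different share of shoot or root cell types in the samples has in the lists above was not tested.

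Water channels were called lower in 11 of 23 cases under both scalings, with none called higher under library totals and 4 under TMM. The plasma membrane channel PIP2;4 was at 176 and 17.5 RPKM in coi1-2 (ratio -3.29) and at 152 and 42.2 RPKM in Col (ratio -1.84). The tonoplast channel TIP2;2 was at 907 and 131 RPKM. The summed level of the list was 10417 RPKM without Al and 3551 RPKM with Al.

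Several transporters and enzymes of mineral uptake were called lower, in lists where most members were not. Of 21 iron genes, 8 were called lower and 1 higher (7 and 3 under TMM). FRO2, the ferric reductase, was at 298 and 16.2 RPKM in coi1-2 (ratio -4.16, interval -4.38 to -4.03) and at 518 and 6.71 RPKM in Col (ratio -6.17). The iron transporter IRT1 was at 119 and 17.3 RPKM and the regulator FIT at 116 and 26.4 RPKM. IRT1 has 2 isoforms listed, and reads shared by isoforms are missing from its level. The sulfate transporters SULTR1;1 and SULTR1;2 were at 40.2 and 4.93 RPKM and at 5.41 and 0.546 RPKM, in a list with 2 of 15 higher and 5 lower (4 and 3 under TMM). The nitrate transporter NRT2.4 had 141 and 7 reads and NRT1.1 5524 and 1499 reads, in a list with 2 of 22 higher and 9 lower (4 and 5 under TMM). Of the phosphate starvation genes, 6 of 23 were called higher and 2 lower (8 and 1 under TMM), the higher ones including the transporter PHT1;5 (2.01 to 16.1 RPKM) and the noncoding RNA IPS1 (647 to 1921 RPKM).

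Cytokinin genes had 10 of 17 called lower and none higher (8 and 0 under TMM). The response regulator ARR6, which damps the cytokinin signal, had 219 and 29 reads in coi1-2 (ratio -2.73) and 101 and 68 reads in Col (ratio -0.38). IPT3, a synthesis enzyme, was at 5.33 and 0.759 RPKM. ARR6 was thus higher in coi1-2 than in Col without Al and lower than in Col with Al. Of the auxin list 3 of 32 (9.4%) were called higher and 8 (25%) lower (4 and 4 under TMM). These shares are near those over all genes, 9.37% and 23.2%. Within the list GH3.3, which conjugates auxin to amino acids, was at 1.40 and 15.1 RPKM and the auxin exporter ABCB19 at 77.3 and 19.9 RPKM.

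Leucine-rich repeat receptor kinases, microtubule genes and genes of cellulose and callose synthesis were called lower far more often than higher. Other cytoskeleton and wall lists had calls in both directions. Actin genes had 2 of 19 (10.5%) higher and 4 (21.1%) lower (3 and 2 under TMM). Pectin methylesterases and inhibitors had 7 of 52 (13.5%) higher and 13 (25%) lower (10 and 11 under TMM). Under library totals the shares in these lists are near those over all genes, 9.37% and 23.2%. Xyloglucan and expansin genes had 5 of 29 (17.2%) higher and 13 (44.8%) lower (7 and 10 under TMM), above both shares over all genes. Of 133 leucine-rich repeat receptor kinases 75 were called lower and 1 higher (60 and 3 under TMM), and in Col 111 were lower and none higher. AT1G07560 was at 14.7 and 0.903 RPKM, and AT5G37450 at 32.8 and 3.02 RPKM. Of 30 kinesins, motor proteins that walk on microtubules, 22 were lower and none higher (19 and 0 under TMM), with MRH2, a motor of root hairs, at 4.62 and 0.159 RPKM. Of 26 tubulins and microtubule-associated proteins 11 were lower and none higher (6 and 1 under TMM), with TUB5 at 207 and 39.5 RPKM. Of 19 cellulose and callose synthesis genes 6 were lower and none higher (3 and 0 under TMM), with CESA2 at 63.7 and 18.7 RPKM. The TMM count of this last list, 3 of 19, is near the background of 14.5%.

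Transcript length moved with the ratio across all genes. Genes called higher had a median length of 1048 bases and genes called lower 1782, against 1411 for all. The median ratio was 0.04 for transcripts under 500 bases, 0.10 from 500 to 1000 bases and -0.98 at 3000 bases or more, where 48.4% were called lower and 1.28% higher. The slope was steeper in Col, with 0.43 under 500 bases and -1.59 at 3000 or more. Pearson's r between log2 length and ratio was -0.28 across the 17514 genes, which are not independent replicates. With a running median over length removed, 52 of 133 receptor kinases, 13 of 30 kinesins and 10 of 26 tubulin genes were still called lower. In families of short transcripts, 13 of 46 glutathione S-transferases and 20 of 62 lipid-transfer-like genes were still called higher. Over all 17514 genes, 3572 were called lower and 1475 higher after that removal. The part of RNA quality in this slope was not tested.

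**Figure D3:**
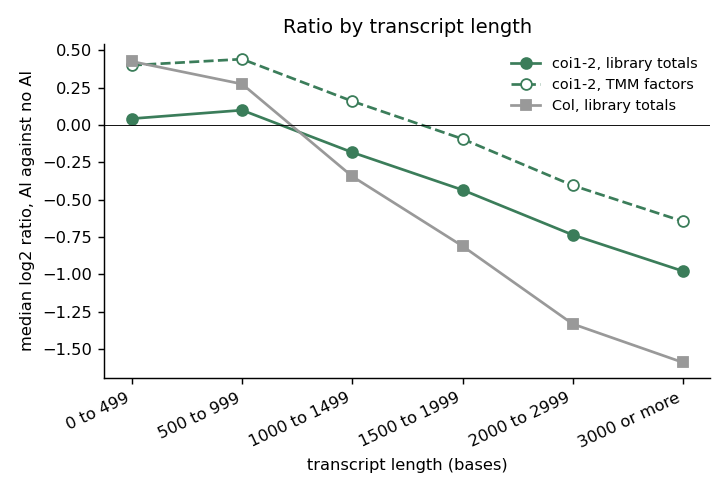
Median log2 ratio of RPKM + 0.5, Al against no Al, by transcript length in bases, for coi1-2 under library totals and under TMM factors and for Col under library totals. In coi1-2 the median goes from 0.10 at 500 to 999 bases to -0.98 at 3000 or more, and the line for Col is steeper.

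**Figure D4:**
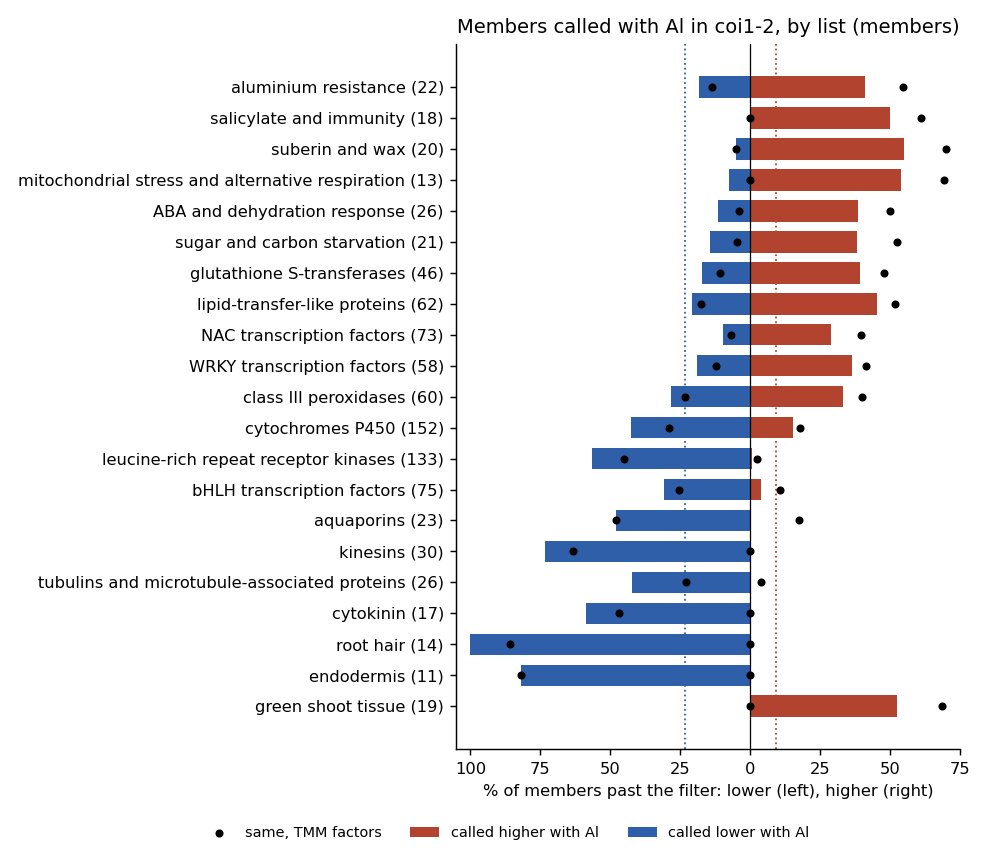
Percent of each list's members past the filter called lower (left, blue) and higher (right, red) with Al in coi1-2 under library totals, with black points for TMM factors and dotted lines for the shares over all genes, 9.37% higher and 23.2% lower. The number of members past the filter stands in brackets, and root hair genes reach 14 of 14 called lower.

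The mutant's calls were largely found in Col as well. Of the 1641 genes called higher in coi1-2, 1234 (75.2%) were called higher in Col, 406 were not called and 1 was called lower. Of the 4064 called lower, 3504 (86.2%) were called lower in Col. Over all genes 11.4% were called higher and 35.8% lower in Col. Read from the other side, 61.7% of genes called higher in Col and 55.9% of those called lower were called the same way in coi1-2. The shares over all genes in coi1-2 were 9.37% and 23.2%. These overlaps were counted under library totals only. The ratio of coi1-2 lay above that of Col by at least 1 log2 unit, with a 95% counting interval (a normal approximation from reads + 0.5) that left out 0, for 1227 genes (7.01%), and below it for 334 (1.91%). Under TMM factors these became 497 (2.84%) above and 733 (4.19%) below, so the direction of the balance depends on the scaling.

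Some single genes differed widely between the genotypes. ERF53, a drought-responsive ERF factor, had 4 and 73 reads in coi1-2 and 29 and 33 in Col, a difference of 2.88 (interval 1.33 to 4.43). GOLS2 had a difference of 2.77 (interval 2.19 to 3.35). CRK10, a cysteine-rich receptor kinase, was at 3.27 and 8.84 RPKM in coi1-2 and at 7.51 and 2.77 RPKM in Col, so the genotypes went opposite ways. In each of these 3 the coi1-2 library without Al was the lowest or next to lowest of the 4. In the other direction, AT5G04120 of the phosphoglycerate mutase family had the widest gap among the named genes, with 41 and 0 reads in coi1-2 and 14 and 81 in Col (difference -6.04, interval -10.1 to -1.94). AT4G12510, described above, had a difference of -3.43. UCC3, a copper protein of the wall, was at 20.9 and 0.304 RPKM in coi1-2 and 13.7 and 4.74 RPKM in Col (difference -3.29). AT1G14960, of a lipid-binding family, was at 82.4 and 4.04 RPKM in coi1-2 and at 36.5 and 19.3 RPKM in Col (difference -3.29).

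Cysteine-rich receptor-like kinases were among the families where the genotypes were furthest apart in counts. In coi1-2, 7 of 18 past the filter (38.9%) were called higher and 4 (22.2%) lower (7 and 3 under TMM). The shares over all genes in coi1-2 were 9.37% and 23.2%. Col had 2 higher and 9 lower, where 11.4% of all genes were called higher and 35.8% lower. CRK11 was at 4.35 and 32.4 RPKM in coi1-2, a ratio of 2.76 where Col had 0.46. For 7 of the 18 the ratio of coi1-2 was above that of Col by the rule for differences under library totals. Over all genes that share was 7.01%, and the difference between the families was not tested.

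Isoforms of a locus seldom parted. Among 227 loci with at least 2 isoforms of 20 or more reads over both coi1-2 libraries, 61 had some isoform called and 1 had isoforms called in opposite directions. ROPGEF11, an activator of ROP switches that steer polar growth, had 62 reads without Al and 5 with Al on its isoform AT1G52240.1, and 146 and 295 reads on AT1G52240.2. In Col the first went from 57 to 4 reads and the second from 347 to 235.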

How the data were processed

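Each of the 4 libraries came as 1 deposited table of transcripts. The authors' unique read counts per transcript, a library total and RPKM are given per the file headers, and recomputing RPKM from count, length and total gave the deposited values. The tables also hold the percent of each transcript covered by reads, per the file headers, which was not used. Which aligner and which build were used is not given in the sources, so gene positions are printed as the files give them.

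Counts and RPKM were summed over the isoforms of a locus. Reads shared by isoforms are missing from unique counts: over the 3089 loci with several isoforms the median level was 0.986 RPKM, and over loci with 1 isoform 5.55 RPKM. Genes that reached 1 RPKM in any library were kept. Python 3.11.15 with pandas 2.3.3, scipy 1.17.1 and numpy 2.4.6 gave ratios and exact intervals. TMM factors came from edgeR 4.0.16 in R 4.3.3, used for scaling only. The steps were tested on simulated data. With 1 library per group no test across genes was run, and for the same reason intervals cover counting error only. Reads carry no molecular identifiers, so duplicate copies of a molecule are not separated.

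The gene lists (31 lists, 10 marker lists and 27 families matched by name pattern in the RefSeq gene table, so loosely) were chosen with earlier results of these data known. Of 863 list entries 1 was not matched. Genes were named by rule: the 12 highest and 12 lowest ratios among called genes with at least 5 RPKM, up to 4 called members a list by size of ratio, the 5 widest differences from Col in each direction, isoforms in opposite directions, the longest runs of neighbours, and COI1 and the main Al, iron and jasmonate genes. Other genes named were chosen after their values were seen. Alternatives were the pseudocount, the filter, the scaling, a stricter counting interval (99.9%), the isoform with most reads and removal of a running median over transcript length (window of 1001 loci).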

Additional observations from a re-analysis of the deposited data

Results flagged for a closer look

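For 6 genes the ratio with Al went one way in coi1-2 and the other way in Col, both past 2-fold with counting intervals that left out no change. With 1 library per group the difference between genotypes was not tested, and the read numbers are small in most cases. AT5G04120, of the phosphoglycerate mutase family, had 41 reads without Al and 0 with Al in coi1-2 (log2 ratio -3.62), and 14 and 81 reads in Col (2.42). EXPA12, an expansin that loosens the cell wall, had 24 and 9 reads in coi1-2 (-1.11) and 5 and 24 in Col (1.83). AT3G16660, of an extensin-related family, had 6 and 0 reads in coi1-2 (-1.66) and 32 and 67 in Col (1.17). AT4G04692, annotated as a pseudogene, had 46 and 19 reads in coi1-2 (-1.12) and 16 and 42 in Col (1.41). AT1G53887, a protein of unknown function, had 23 and 9 reads in coi1-2 (-1.17) and 11 and 26 in Col (1.28). CRK10, a cysteine-rich receptor-like kinase, was the only one of the 6 called higher in coi1-2, with 53 and 139 reads (1.31), against 128 and 42 in Col (-1.29).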

How the results depend on the processing

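No paired analysis was possible because each group has 1 library, and no library could be left out. Under TMM factors the calls were 2616 higher and 2548 lower with a median of 0.00906 over all genes, and 497 responses lay above those of Col and 733 below. Under median-of-ratios factors these were 2580, 2571, 0.00129, 455 and 801. A stricter counting interval left 799 responses above Col and 189 below, and removing the length trend left 197 below. These 5 quantities stayed within 1.5 times under both pseudocounts, a filter of 5 RPKM, no filter and the isoform with most reads, with calls from 1372 to 1718 higher and from 2868 to 4504 lower. Of 259 named genes with a call, 7 lost it under TMM factors and 7 under median-of-ratios factors, 11 with the stricter interval, 11 with the length trend removed and 3 at a pseudocount of 1. None reversed in any alternative run. Of 136 list counts, 44 moved by more than 1.5 times under each rescaling, 28 with the length trend removed and 24 with the filter of 5 RPKM. At these depths 3 reads correspond to 0.404 reads per 1e6 without Al and 0.417 with Al in coi1-2, so genes below a few reads, such as STOP1, are not resolved.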

Other observations

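Cytochromes P450, the oxidases of hormone and defence chemistry, were called in both directions in coi1-2 roots, 23 higher and 65 lower of 152 (27 and 44 under TMM). CYP81F2, which modifies indole glucosinolates, was called higher, while the cytokinin hydroxylase CYP735A2 had a log2 ratio of -2.82. Arabinogalactan proteins and extensins of the cell surface had 19 higher and 37 lower of 91 (20 and 29 under TMM), from AGP2 among the largest gains in level to FLA6, with a ratio of -4.40 in coi1-2 and -1.39 in Col. Thioredoxins and glutaredoxins, which reset protein thiols, had 9 higher and 7 lower of 82, and 21 and 5 under TMM.

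Genes of ribosomal proteins, the proteasome and tryptophan synthesis were seldom called. Of 278 ribosomal protein genes 4 were called higher and 27 lower (10 and 15 under TMM), and of 33 proteasome subunits 1 was called higher and none lower (5 and 0 under TMM). The ribosomal genes called lower include plastid-encoded ones such as ATCG00770 (ratio -2.37). None of 7 tryptophan synthesis genes was called (2 higher under TMM). By contrast, of 36 cell cycle genes 3 were called higher and 15 (41.7%) lower (3 and 7 under TMM). Over all genes 23.2% were called lower under library totals and 14.5% under TMM, where the contrast was smaller. BZIP60, a factor of the unfolded protein response in the endoplasmic reticulum, was higher, with a ratio of 2.52, in a list with 3 of 13 higher and 5 lower (4 and 4 under TMM).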
